A study of Homo sapiens with 5 samples.

Results

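The genes described here are 10 long noncoding RNAs, 5 of which are snoRNA host genes, taken by symbol from the 26364 genes listed in an mRNA-seq table of IMR-90 cells. They were MALAT1, NEAT1, MEG3, H19 and MIR22HG, and the snoRNA hosts GAS5, SNHG1, SNHG5, SNHG7 and SNHG8. IMR-90 is a normal human lung fibroblast line. The study asked how loss of NSD2, a histone H3 lysine 36 methyltransferase, changes expression in these cells, and the cells were collected 24 h after siRNA transfection. There were 2 biological replicates of Ctr-KD cells, which received a control siRNA, and 3 NSD2-KD libraries. Those 3 were made with the siRNAs NSD2-1, NSD2-2 and NSD2-3, 1 library each, so the effect of a single siRNA and the spread between cultures cannot be told apart. RNA was selected by poly(A).

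MALAT1 and NEAT1 are retained in the nucleus. MALAT1 sits in nuclear speckles, where splicing factors collect, and NEAT1 is the scaffold of paraspeckles, bodies built with the RNA-binding proteins SFPQ and NONO. MEG3 and H19 are imprinted and are read from the maternal chromosome, and MIR22HG is the precursor of the microRNA miR-22. The snoRNA hosts carry small nucleolar RNAs, the guides of ribosomal RNA modification, in their introns. Their spliced exons code for no stable protein, are broken down by nonsense-mediated decay when ribosomes read them, and start in many cases with a terminal oligopyrimidine (TOP) stretch of C and T bases, as ribosomal protein mRNAs do.

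Sequences at the start of the 5 hosts are shown because the TOP stretch is the feature that sets these genes beside ribosomal protein genes. Each line holds 70 bases from RefSeq (GRCh38.p14), with 20 bases before the annotated start and the rest from the start onwards. Capitals mark the longest unbroken run of C or T between 10 bases before the start and the end of the line, on the strand of the gene, and the first of them where 2 were equally long (SNHG7 and SNHG8).

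SNHG1: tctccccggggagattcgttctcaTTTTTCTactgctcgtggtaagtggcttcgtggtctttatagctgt

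SNHG5: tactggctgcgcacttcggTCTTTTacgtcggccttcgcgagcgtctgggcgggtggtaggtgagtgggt

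SNHG7: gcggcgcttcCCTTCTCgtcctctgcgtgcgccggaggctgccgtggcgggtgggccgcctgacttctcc

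SNHG8: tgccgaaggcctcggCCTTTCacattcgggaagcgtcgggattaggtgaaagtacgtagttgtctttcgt

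GAS5: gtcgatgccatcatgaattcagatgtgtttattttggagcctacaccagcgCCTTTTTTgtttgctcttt

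The run of SNHG5 was 6 bases long and began 1 base before the start, and that of SNHG8, also 6 bases, began 5 bases before it. SNHG1 had a run of 7 bases from base 5 of the transcript, and SNHG7 one of 7 bases at the upstream edge of the window. Followed beyond that edge, the SNHG7 run was 11 bases long and began 14 bases before the start. In GAS5 the longest run, 8 bases, came only at base 32 of this RefSeq entry. Whether GAS5 transcripts of these cells begin at this annotated start or elsewhere was not tested. Runs of this kind are common: 48.1% of 35116 promoters of the same table had one of at least 6 bases, 32.6% one of at least 7 and 21.8% one of at least 8. The capitals therefore describe these starts and identify no regulatory element.

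Among the snoRNAs carried by GAS5, SNORD78 is shown as an example of the RNAs the hosts exist to make. Its 65 bases lie at chr1:173834760-173834824 on the minus strand of GRCh37, inside the span of GAS5, and it belongs to the box C/D class, which guides 2′-O-methylation.

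SNORD78: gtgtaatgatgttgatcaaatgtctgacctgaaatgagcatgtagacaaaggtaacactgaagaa

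The microRNAs of MIR22HG, MEG3 and H19 are given with bases 2 to 8, the seed that pairs with a target, in capitals, since these short products are the best known output of MIR22HG and one output of the other 2 genes. Mature sequences are from RefSeq (GRCh38.p14). No seed was shared between them.

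hsa-miR-22-3p: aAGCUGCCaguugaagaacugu

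hsa-miR-22-5p: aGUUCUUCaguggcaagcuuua

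hsa-miR-770-5p: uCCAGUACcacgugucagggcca

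hsa-miR-675-5p: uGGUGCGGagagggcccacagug

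hsa-miR-675-3p: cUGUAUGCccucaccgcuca

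None of the 10 RNAs passed the test for a difference between NSD2-KD and Ctr-KD cells. The values were normalized counts, which are reads on a gene divided by 1 size factor per library, and limma was fitted on log2(normalized count + 1) to the 11313 genes with a mean of at least 10. Of the 10 RNAs, 9 entered this test. H19 was the exception, with a mean of 0.574 normalized counts, and was the only one under 10. At an adjusted p under 0.05 limma called 0 of the 9, against 10 of all genes tested (0.0884%), and 0 of the 9 passed at an unadjusted p under 0.05, against 1039 of all genes (9.18%). edgeR, DESeq2 and limma-voom, run on the reads, also called 0 of the 9, and an unadjusted p under 0.05 was given only to SNHG1, by limma-voom. The targeted gene, NSD2, appears as WHSC1 and had 463 and 443 normalized counts in the Ctr-KD libraries and 90.2, 81.9 and 87.9 in the NSD2-KD libraries, with an adjusted p of 0.000464 in limma.

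Libraries held between 2473691 and 2845063 reads on genes. A gene at or under 3 reads in a library, which is 2.76 to 3.28 normalized counts, was treated as not distinguishable from 0. Of 10 fibroblast markers, 9 had a mean of at least 10, and COL1A1 was the highest, between 91000 and 106300 normalized counts. The exception was S100A4, with 6.17 to 8.79. The 10 markers of other cell types (epithelial, blood, endothelial, liver and smooth muscle) summed to between 21.6 and 28.5 per library, 5 of them had no read, and MYH11 made up most of the rest. These are bulk libraries, in which fewer cells expressing a gene and less RNA per cell cannot be told apart.

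**Figure D1:**
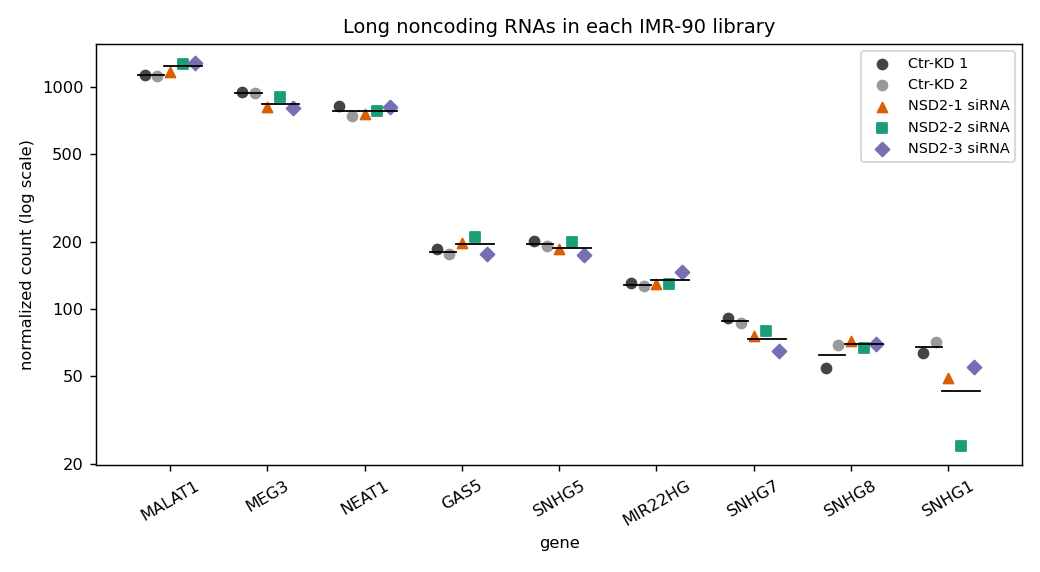
Normalized counts (log scale) of the 9 RNAs with a mean of at least 10, by gene, with 1 point per library and a line at each group mean. MALAT1, MEG3 and NEAT1 lie between 742 and 1285 in every library, while SNHG1 with the NSD2-2 siRNA, at 24.0, is the lowest point.

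MALAT1 was the most abundant of the 10 RNAs in reads and ranked 270 among all genes by mean. It is a single-exon transcript at chr11:65265111-65275544 (GRCh37, plus strand). Ctr-KD cells had 1136 and 1128 normalized counts, and NSD2-KD cells had 1174, 1267 and 1285. All 3 NSD2-KD libraries were thus above both Ctr-KD libraries, at 104%, 112% and 113.5% of the Ctr-KD mean. The means were 1132 ± 5.67 (SD, n = 2) and 1242 ± 59.4 (SD, n = 3). On the log2 scale the difference was 0.13 (SE 0.087, 95% interval -0.07 to 0.33), with an adjusted p of 0.709 in limma. This interval corresponds to between 95.4% and 126% of the Ctr-KD level. Exons of TALAM1, its antisense RNA, overlap the gene, and reads of the pair cannot be told apart where the strand setting is unknown. The SD of the Ctr-KD pair was only 0.169 times the SD that counting alone would give, so the closeness of those 2 values is no measure of the spread between cultures.

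The library method bears on MALAT1, because its mature 3′ end is not made by ordinary polyadenylation. RNase P cuts the nascent RNA just downstream of a genomically encoded A-rich tract and releases a tRNA-like RNA called mascRNA. The longest run of A in the gene, 13 bases and here in capitals, lies 8459 bases from its start, at chr11:65273539-65273611 with its flanks, and is followed within a few bases by the first bases of mascRNA.

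MALAT1: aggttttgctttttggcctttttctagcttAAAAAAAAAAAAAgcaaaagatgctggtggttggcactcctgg

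NEAT1 has a short polyadenylated isoform and a long one whose 3′ end is made in the same way as that of MALAT1, and the counts do not separate them. Which forms of either RNA the poly(A) selection kept was not tested.

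NEAT1, at chr11:65190245-65213011 (GRCh37, plus strand), ranked 487 by mean. It had 825 and 742 normalized counts in Ctr-KD cells, and 756, 779 and 813 in NSD2-KD cells. The NSD2-KD values all fell between the 2 Ctr-KD values. Means were 783 ± 58.9 (SD, n = 2) and 783 ± 28.6 (SD, n = 3), and the log2 difference was 0.0003 (SE 0.096, 95% interval -0.22 to 0.22, adjusted p = 0.9997 in limma). That interval spans 85.9% to 116.5% of the Ctr-KD level, and the sign of so small a value was negative under quantile normalization, edgeR, DESeq2 and limma-voom. The spread of the NSD2-KD libraries was 1.02 times the counting SD, that of the Ctr-KD libraries 2.12 times.

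MALAT1 and NEAT1 are neighbours on chromosome 11, and their ratio within a library does not depend on the size factor. MALAT1 had 1.38 and 1.52 times the reads of NEAT1 in Ctr-KD cells, and 1.55, 1.63 and 1.58 times in NSD2-KD cells. The 3 NSD2-KD ratios were the highest, but by a margin smaller than the gap between the 2 Ctr-KD ratios. Of the protein-coding genes on either side, LTBP3 differed by 0.11 on the log2 scale (adjusted p = 0.833) and FRMD8 by 0.17 (adjusted p = 0.847, both in limma).

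MEG3, from the imprinted DLK1-DIO3 region at chr14:101245747-101327368 (GRCh37, plus strand), is known as a growth-restraining RNA and ranked 413. Ctr-KD cells had 952 and 941 normalized counts, and NSD2-KD cells 811, 902 and 806. Every NSD2-KD library was below both Ctr-KD libraries, at 85.7%, 95.3% and 85.2% of their mean. The group means were 946.5 ± 7.33 (SD, n = 2) and 840 ± 54.2 (SD, n = 3). As for MALAT1, the Ctr-KD SD was only 0.239 times the counting SD, so that pair does not measure the spread between cultures. The log2 difference of -0.17 (SE 0.094, 95% interval -0.39 to 0.04) did not pass in limma (unadjusted p = 0.101, adjusted p = 0.634). The interval reaches from 76.3% to 103% of the Ctr-KD level.

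Among the other genes of the MEG3 region named here, only MEG9 had a mean of at least 10. DLK1 and RTL1, the protein-coding genes read from the paternal chromosome, did not exceed 1.09 and 3.81 normalized counts in a library, and DIO3 had no read. MEG9 averaged 14.4 in Ctr-KD and 16.1 in NSD2-KD cells, and MEG8 5.98 and 3.37. Exons of MEG3 also overlap those of MIR493HG on the same strand, so reads may be shared between them. The row for MIR770, a microRNA gene inside an exon of MEG3, averaged 8.12 normalized counts.

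H19, at chr11:2016396-2025782 (GRCh37, minus strand), was at or under the floor in all 5 libraries. It had 0 and 1 reads in Ctr-KD cells and 2, 0 and 0 in NSD2-KD cells, so no fold change is given. MIR675, the microRNA row inside H19, had no read in any library. IGF2, the paternally expressed gene that shares an enhancer and an imprinting control region with H19, was abundant: 863 and 915 normalized counts in Ctr-KD cells, and 824, 1085 and 818 in NSD2-KD cells. The IGF2 values overlapped between the groups, with a log2 difference of 0.02 (SE 0.14, adjusted p = 0.977 in limma).

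MIR22HG, at chr17:1614741-1620468 (GRCh37, minus strand), is known to respond to stress. It had 130.5 and 126.5 normalized counts in Ctr-KD cells and 129.7, 129 and 147 in NSD2-KD cells. The NSD2-1 and NSD2-2 libraries lay inside the Ctr-KD range and NSD2-3 above it, so the groups overlapped. Its log2 difference was 0.07 (SE 0.14, 95% interval -0.24 to 0.38, adjusted p = 0.911 in limma), and was 0.0090 without the NSD2-3 library. TLCD2, 1070 bases away, averaged 46.8 in Ctr-KD and 30.3 in NSD2-KD cells, a log2 difference of -0.63 with an unadjusted p of 0.050 and an adjusted p of 0.546 in limma.

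Among the snoRNA hosts the log2 differences ran from -0.72 in SNHG1, the largest of the 9 tested RNAs in absolute size, to 0.17 in SNHG8. GAS5 lies at chr1:173827697-173838020 (GRCh37, minus strand), with 12 exons, and is known as an RNA that accumulates when growth stops. It had 186 and 177 normalized counts in Ctr-KD cells and 198, 212 and 178 in NSD2-KD cells. NSD2-3 fell between the Ctr-KD values and the other 2 siRNAs lay above them. The log2 difference was 0.11 (SE 0.13, 95% interval -0.19 to 0.40, adjusted p = 0.856 in limma), and was 0.048 without NSD2-2 and 0.17 without NSD2-3. Exons on the opposite strand overlap those of GAS5, and the strand setting of the counting is not given in the sources used here, so reads in a shared stretch cannot be told apart.

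SNHG5 lies at chr6:86360209-86388650 (GRCh37, minus strand). It had 203 and 191 normalized counts in Ctr-KD cells and 186, 201 and 175 in NSD2-KD cells, and the groups overlapped. An exon overlap with PKMP3, a pseudogene on the same strand, makes these values less certain. The log2 difference was -0.08 (SE 0.13, 95% interval -0.36 to 0.21, adjusted p = 0.899 in limma). It was -0.13 without NSD2-2, -0.12 without Ctr-KD replicate 2, -0.034 without Ctr-KD replicate 1 and -0.028 without NSD2-3. Its neighbour SYNCRIP, an RNA-binding protein gene 6428 bases away, averaged 597 in Ctr-KD and 508 in NSD2-KD cells, a log2 difference of -0.23 with an unadjusted p of 0.042 and an adjusted p of 0.513 in limma.

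SNHG7, at chr9:139615818-139622636 (GRCh37, minus strand), was lower in every NSD2-KD library, and its exons overlap those of DIPK1B on the opposite strand. Ctr-KD cells had 90.5 and 86.4 normalized counts, NSD2-KD cells 75.5, 79.7 and 64.4. With the NSD2-3 siRNA the level was 72.8% of the Ctr-KD mean, against 85.3% with NSD2-1 and 90.1% with NSD2-2. The means were 88.5 ± 2.89 (SD, n = 2) and 73.2 ± 7.90 (SD, n = 3), and the SD of the NSD2-KD libraries was 0.924 times the counting SD. That of the Ctr-KD pair was only 0.309 times the counting SD, so the closeness of those values does not measure the spread between cultures. The log2 difference of -0.27 (SE 0.17, 95% interval -0.66 to 0.11) had an unadjusted p of 0.135 and an adjusted p of 0.680 in limma.

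SNHG8, at chr4:119199858-119206471 (GRCh37, plus strand), had 54.3 and 68.9 normalized counts in Ctr-KD cells and 71.8, 66.6 and 69.3 in NSD2-KD cells. NSD2-2 lay between the Ctr-KD values, so the groups overlapped, and the Ctr-KD pair was farther apart than the 3 NSD2-KD libraries. Its log2 difference was 0.17 (SE 0.18, 95% interval -0.23 to 0.58, adjusted p = 0.825 in limma), and was 0.0057 without Ctr-KD replicate 1 and 0.34 without Ctr-KD replicate 2. The exons of SNHG8 overlap those of PRSS12, a protease gene with a mean of 376.5 normalized counts on the opposite strand, so the SNHG8 values may hold reads of PRSS12.

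SNHG1, at chr11:62619450-62623425 (GRCh37, minus strand, 11 exons), carries a series of box C/D snoRNAs, SNORD22 and SNORD31 among them. Ctr-KD cells had 62.9 and 71.0 normalized counts, and NSD2-KD cells had 48.8, 24.0 and 54.7. All 3 NSD2-KD libraries were below both Ctr-KD libraries, and the NSD2-2 library stood well below the other 2. The levels were 72.9%, 35.9% and 81.7% of the Ctr-KD mean for NSD2-1, NSD2-2 and NSD2-3. In reads, the Ctr-KD libraries had 66 and 69 and the NSD2-KD libraries 53, 22 and 56. For NSD2-2 the 95% Poisson interval, which covers counting error only, ran from 15.1 to 36.4 normalized counts. It ended just under the lower bound of the NSD2-1 library, 36.5, and below those of the other 3.

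The SNHG1 means were 66.9 ± 5.74 (SD, n = 2) and 42.5 ± 16.3 (SD, n = 3). The spread of the NSD2-KD libraries was 2.52 times the counting SD, the widest ratio among the 9 tested RNAs in that group. Its log2 difference of -0.72 (SE 0.33, 95% interval -1.49 to 0.04) had an unadjusted p of 0.061 and an adjusted p of 0.569 in limma. Without the NSD2-2 library it was -0.37 (adjusted p = 0.566). The interval covers levels from 35.7% to 103% of Ctr-KD cells, so neither a large fall nor the absence of one was resolved with these libraries.

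The low SNHG1 value was not shared by the other hosts among the 10 RNAs in the same library. With NSD2-2, GAS5 was at 117% of its Ctr-KD mean, SNHG8 at 108%, SNHG5 at 102% and SNHG7 at 90.1%. Hosts outside the 10 RNAs were mixed in that library. SNHG3 (55.7 normalized counts) and SNHG16 (107) had their lowest value of all libraries there, while SNHG4 (22.9) and EIF4G2 (3373) had their highest. As a share of GAS5, SNHG1 was 33.9% and 40.1% in Ctr-KD cells and 24.7%, 11.3% and 30.8% in NSD2-KD cells. The NSD2-2 library was also the shallowest, with 2473691 reads on genes, and the part of depth or of this siRNA in the SNHG1 value was not tested. SLC3A2, 51 bases away, averaged 822 in Ctr-KD and 926 in NSD2-KD cells (log2 difference 0.11, adjusted p = 0.920 in limma), and WDR74, on the other side, 58.0 and 47.8 (log2 difference -0.28, adjusted p = 0.735).

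**Figure D2:**
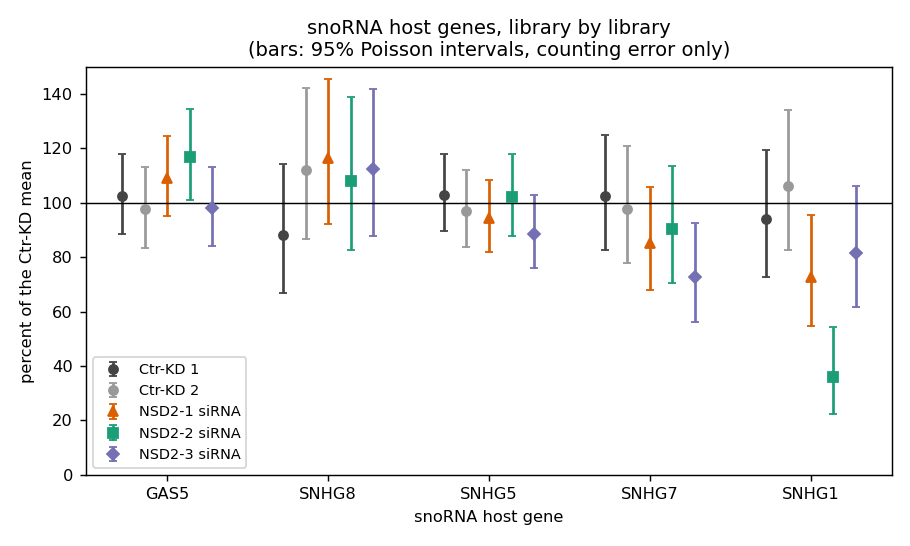
Level of the 5 snoRNA hosts in each library as a percent of the Ctr-KD mean, with 95% Poisson intervals as bars, which cover counting error only. The SNHG1 point of the NSD2-2 library, at 35.9%, lies below all others, while the same library gives 117% for GAS5.

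Set side by side, the 9 tested RNAs divided into 3 that were lower in every NSD2-KD library (MEG3, SNHG7 and SNHG1), 1 that was higher in every one (MALAT1) and 5 that overlapped. Over all genes tested, 13.9% were lower and 13.8% higher in this sense. With so few RNAs these counts are a description. The median log2 difference of the 9 was 0.0003, against -0.0089 over all genes tested, and the median absolute difference was 0.13 against 0.16. For the 5 hosts the median was -0.08, the value of SNHG5. The interquartile range over all genes tested was -0.18 to 0.14, and SNHG1, SNHG7 and SNHG8 were outside it. No call in the whole comparison had an absolute log2 difference under 0.80, so a shift of the size seen in MEG3 or MALAT1 was smaller than anything called at this depth and number of libraries.

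**Figure D3:**
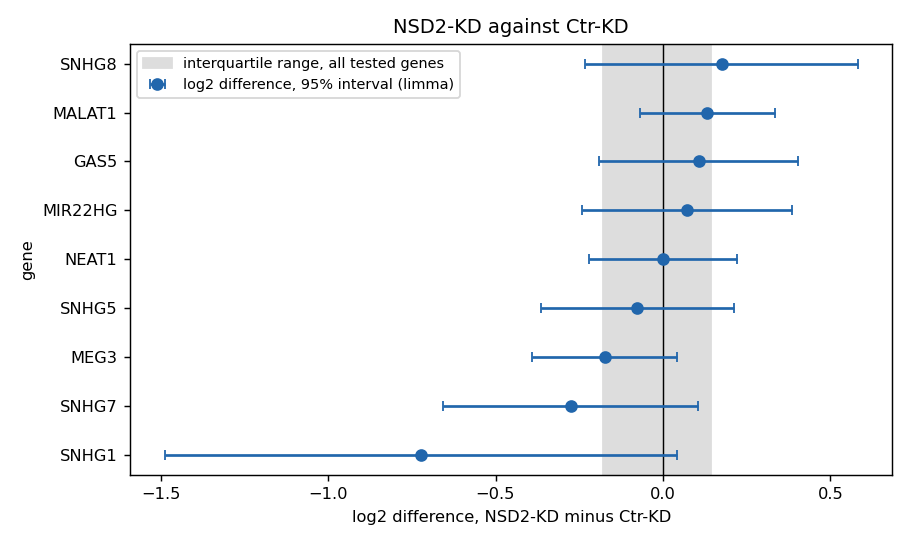
Log2 difference (NSD2-KD minus Ctr-KD) of the 9 tested RNAs with 95% intervals from limma, over the interquartile range of all tested genes (-0.18 to 0.14). All 9 intervals include 0, and that of SNHG1, from -1.49 to 0.04, is the widest.

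As a share of all reads the 10 RNAs made up 0.138% and 0.133% of the Ctr-KD libraries and 0.132%, 0.1355% and 0.136% of the NSD2-KD libraries. The ranges overlapped. The 5 hosts took 0.0226% and 0.0224% in Ctr-KD cells and 0.0221%, 0.0216% and 0.0205% in NSD2-KD cells. Each NSD2-KD library was below both Ctr-KD libraries, an order that 13.9% of single genes tested also had. The closest 2 shares, 0.0224% and 0.0221%, were nearly equal, and the counting error of the sum was not computed. The hosts did not fall together: GAS5 and SNHG8 had log2 differences above 0 and SNHG5 overlapped. No single NSD2-KD library was low throughout: among the 9 tested RNAs, NSD2-3 gave the lowest of the 3 values for 4 RNAs, NSD2-2 for 3 and NSD2-1 for 2.

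Levels of different genes can be set against each other only per length, and here the order depended on the length used. With the canonical transcript of GENCODE (GRCh37), MEG3 had 1396 normalized counts per kilobase, GAS5 247, SNHG5 145, MALAT1 115, MIR22HG 46.1, SNHG1 45.0, NEAT1 34.4, SNHG7 33.7, SNHG8 10.7 and H19 0.519. With the union of all annotated exons, MALAT1 was first at 115 and MIR22HG followed at 42.7, while GAS5 had 38.5, MEG3 38.0, NEAT1 34.4, SNHG7 16.2, SNHG5 15.2, SNHG1 13.2, SNHG8 10.0 and H19 0.166. The canonical MEG3 transcript has 632 bases and the union of its exons 23224, which accounts for its different places in the order. H19 was last on both scales.

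The rows for small RNAs inside these genes held few reads. Mature snoRNAs and microRNAs have no poly(A) tail, and whether these reads came from them or from the host transcript was not tested. Of 28 such names 27 were in the table, 1 of those had no read, and none reached the mean of 10 needed for the test. They summed to 69.5 and 63.8 normalized counts in the Ctr-KD libraries and to 58.9, 62.3 and 70.3 in the NSD2-KD libraries, which overlapped. SNORD47, in GAS5, had the highest mean, 8.39, and the row for MIR22 averaged 5.67. SNORD78 had between 0 and 2.19 normalized counts.

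The other snoRNA host genes gave no call either. Of 39 listed, 34 were tested and limma called 0 in either direction. An unadjusted p under 0.05 was found for 2, both higher, against 9.18% of all genes tested in either direction. The median log2 difference of the 34 was -0.04. SNHG20, 1 of these 2, had 6.67 and 7.20 normalized counts in Ctr-KD cells and 19.3, 10.9 and 20.5 in NSD2-KD cells. Its log2 difference was 1.13 (SE 0.36, adjusted p = 0.375). Its Ctr-KD mean, 6.935, was under 10, so it entered the test only through the group where it was higher and gives no support for a rise of hosts. PPAN, a ribosome assembly factor gene, had a log2 difference of 0.44 (adjusted p = 0.471), SNHG4 0.47, SNHG17 0.44 and SNHG15 -0.44. The abundant protein-coding hosts HSPA8, EIF4G2, EIF4A1 and RACK1 had differences of -0.16, -0.39, 0.01 and -0.05. Among these, HSPA8, a chaperone, was lower in all 3 NSD2-KD libraries, and EIF4G2 ranged from 1899 to 3373 within the NSD2-KD group.

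Proteins that bind and mature snoRNAs had values mostly below 0, without a call. All 16 snoRNP proteins listed were tested and limma called 0. At an unadjusted p under 0.05, 1 was lower, against 9.18% of all genes passing in either direction. Of the 16, 13 had a log2 difference below 0 (10 with quantile normalization), as did 51.5% of all genes tested, and 5 had all 3 NSD2-KD libraries below both Ctr-KD libraries, against 13.9% of all genes. The median of the list was -0.12. FBL, the methyltransferase of box C/D snoRNPs, had 229.6 and 224 normalized counts in Ctr-KD cells and 196, 176 and 179.6 in NSD2-KD cells, a log2 difference of -0.30 (SE 0.12, adjusted p = 0.494). RUVBL2, an assembly ATPase, differed by -0.22, ZNHIT3 by -0.47, NAF1 by -0.43, NOP56 by -0.14 and NOLC1 by -0.12.

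Factors that set the stability and translation of host RNAs gave no call. Among 17 nonsense-mediated decay factors limma called 0, none passed at an unadjusted p under 0.05, and the median log2 difference was -0.02. The central helicase UPF1 had a difference of 0.09 and the kinase SMG1 -0.0036, while UPF3B, at 0.49 (adjusted p = 0.634), was the highest and PNRC2, at -0.36, the lowest. Among 19 other TOP mRNAs, limma called 0 and none passed at an unadjusted p under 0.05, with a median of 0.01 and a range from -0.16 in NPM1 to 0.17 in EIF4B. The elongation factor EEF1A1 had a difference of 0.02 and EEF2 0.05.

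Paraspeckle proteins, the partners of NEAT1, had lower values in NSD2-KD cells, also without a call. All 18 tested had a log2 difference below 0 (17 when any library but Ctr-KD replicate 1 was left out), with a median of -0.18 against -0.0089 over all genes, and 8 of the 18 were lower in every NSD2-KD library, against 13.9% of all genes. Of all genes tested 51.5% were below 0. Limma called 0, and the 2 with an unadjusted p under 0.05, which 9.18% of all genes had, were both lower. HNRNPR had 423 and 428 normalized counts in Ctr-KD cells and 356, 317 and 363 in NSD2-KD cells, a log2 difference of -0.30 (SE 0.11, adjusted p = 0.434). The differences were -0.45 for ZNF24, -0.39 for PSPC1 and -0.33 for RBM14. The core proteins SFPQ and NONO, which bind NEAT1 directly, had differences of -0.22 and -0.07 (adjusted p = 0.640 and 0.874), and HNRNPK -0.18. NEAT1 itself, as given above, had 783 normalized counts on average in both groups.

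Nuclear speckle proteins, which share their compartment with MALAT1, were likewise mostly below 0, without a call. Of 20 tested, limma called 0, 3 had an unadjusted p under 0.05 and were lower, 18 had a difference below 0 and 8 were lower in every NSD2-KD library, with a median log2 difference of -0.11. Over all genes tested these shares were 9.18% with such a p in either direction, 51.5% below 0 and 13.9% lower in every library. The splicing factor SRSF7 had 221 and 225 normalized counts in Ctr-KD cells and 178.5, 151 and 158 in NSD2-KD cells, a log2 difference of -0.46 (SE 0.13, adjusted p = 0.313). SRSF2 differed by -0.29 (adjusted p = 0.469) and SRSF1 by -0.27 (adjusted p = 0.434). The scaffold proteins SON and SRRM2 had differences of -0.08 and -0.11. MALAT1 had a difference of 0.13, of the opposite sign.

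Factors that process MALAT1, NEAT1 and microRNA precursors, or act in nuclear RNA decay, formed a list of 15, of which 14 entered the fit. Limma called 0, and the median was -0.11. While 9.18% of all genes tested had an unadjusted p under 0.05, in this list a single gene did. This was EXOSC10, a nuclear exosome nuclease, with a log2 difference of -0.33 (SE 0.14, adjusted p = 0.513). RPP40 and RPP38, protein subunits of RNase P, had differences of -0.37 and 0.42. DROSHA and DICER1, which process microRNA precursors, differed by -0.13 and -0.21, ELAC2 by -0.06 and PABPN1 by 0.15.

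**Figure D4:**
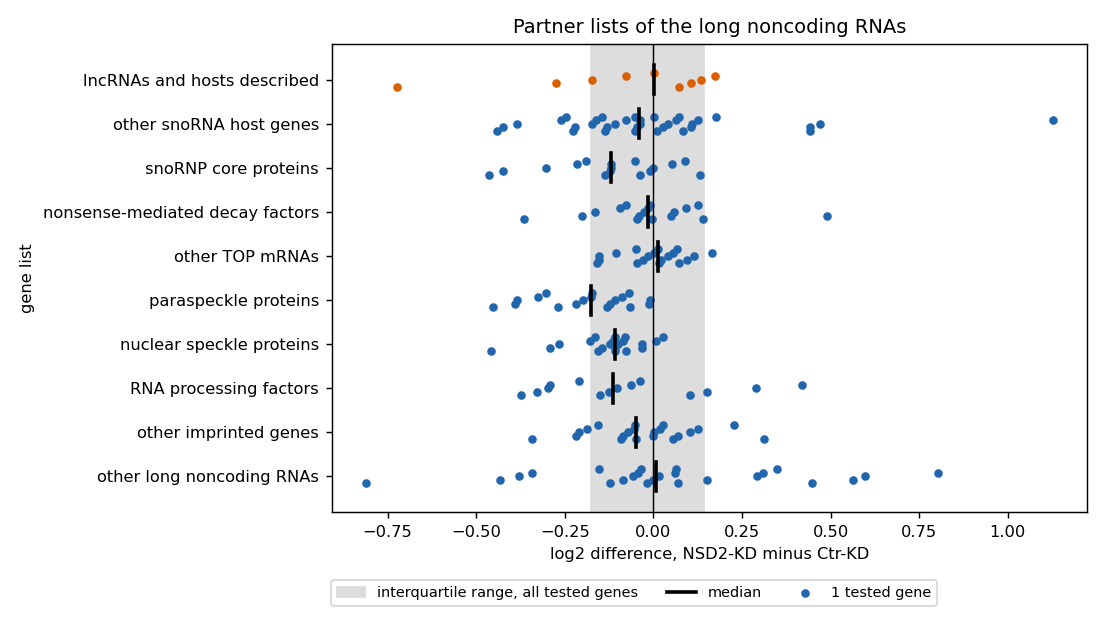
Log2 differences (NSD2-KD minus Ctr-KD) of the tested genes in each list, 1 point per gene, with a bar at the median of the list and the interquartile range of all tested genes in grey. Paraspeckle proteins all lie below 0, around a median of -0.18, while the 9 long noncoding RNAs lie on both sides of it.

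Among other genes listed as imprinted, 21 of 30 were tested, limma called 0, and the median was -0.05. Whether each is imprinted in these cells was not tested. A single gene had an unadjusted p under 0.05, against 9.18% of all genes tested. This gene, IGF2R, the receptor that clears IGF2, had 1411 and 1458 normalized counts in Ctr-KD cells and 1697, 1612 and 1736 in NSD2-KD cells. These groups did not overlap, and the log2 difference was 0.23 (SE 0.083, adjusted p = 0.440). KCNQ1OT1, a long noncoding RNA that silences its neighbours, had a difference of -0.34 (adjusted p = 0.643). MEST ranged from 236 to 443 within the NSD2-KD group, GNAS differed by 0.0008, NNAT by 0.31 and SGCE by -0.22. NNAT averaged 8.955 in Ctr-KD and 11.3 in NSD2-KD cells, so it reached the mean of 10 only through its NSD2-KD values.

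Other long noncoding RNAs, 24 tested of 49 listed, gave 0 calls in limma around a median of 0.01. An unadjusted p under 0.05 was found for 2 lower and 2 higher RNAs, against 9.18% of all genes tested in either direction. NORAD, a cytoplasmic RNA that binds PUMILIO proteins, had 974 and 919 normalized counts in Ctr-KD cells and 940.4, 914 and 982 in NSD2-KD cells. It overlapped between the groups, as did FENDRR, TUG1 and MIR100HG, with differences of 0.02, -0.04 and -0.04. HOXB-AS3 had 28.6 and 32.9 normalized counts in Ctr-KD cells and 47.9, 60.1 and 55.6 in NSD2-KD cells, a log2 difference of 0.80 (SE 0.20, adjusted p = 0.267). MIR503HG, at -0.81 (SE 0.28, adjusted p = 0.406), was lower in all 3 NSD2-KD libraries, with 9.83 to 12.0 normalized counts against 19.1 and 21.6. TRAM2-AS1 and CYTOR had differences of 0.60 and 0.56 (adjusted p = 0.650 and 0.430). TRAM2-AS1 averaged 7.93 in Ctr-KD and 12.7 in NSD2-KD cells, so it reached the mean of 10 only through its NSD2-KD values.

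The protein-coding genes nearest to the 10 RNAs, and those that overlap them, were 41 genes, of which 23 were tested. Limma called 0, and 1, SYNCRIP, passed at an unadjusted p under 0.05, against 9.18% of all genes tested. edgeR, DESeq2 and limma-voom called 0 of the 23 and 0 of any list named here. Of the 23, 5 were lower and 1 higher in every NSD2-KD library, against 13.9% and 13.8% of all genes tested. Their median log2 difference was 0.02, with a range from -0.63 in TLCD2 to 0.17 in FRMD8. CENPL, a centromere protein gene near GAS5, had a log2 difference of -0.56 (SE 0.27, adjusted p = 0.584).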

How the data were processed

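mRNA-seq libraries were made from poly(A)-selected RNA of 2 Ctr-KD and 3 NSD2-KD cultures of IMR-90 cells and read as single ends. The authors used Trimmomatic for trimming, HISAT2 for mapping to hg19, SAMtools to keep unique alignments and featureCounts for counting. The annotation and strand setting are not given in the sources used here. The deposited signal is the normalized count, the reads on a gene divided by the authors with 1 DESeq2 size factor per library, so a shift common to all genes would not be seen. Dividing by the smallest step gave whole reads for 100% of values (tolerance 0.1). A second table, with the fold changes and p-values of the authors' own comparison, was not used. Of 26364 listed names, 28 looked like dates and 2 occurred more than once.

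The 10 RNAs and the lists were chosen with earlier results of these data known. limma 3.58.1 (R 4.3.3) with a mean-variance trend was fitted to log2(normalized count + 1) of the 11313 genes with a mean of at least 10, with Benjamini-Hochberg adjustment over all of them and a threshold of 0.05, two-sided. Unless another tool is named, every log2 difference, SE, interval and adjusted p comes from this fit. The pseudocount makes changes of low genes look smaller. No count test was the main one because the values are normalized; edgeR 4.0.16 (quasi-likelihood, TMM), DESeq2 1.42.0 and limma-voom on the recovered reads were alternatives, and edgeR called 16 genes in all. Further settings were pseudocounts of 0.5 and 5, a minimum mean of 50 or none, no trend, robust estimation, quantile normalization, a replicate block and each library left out. Fits were tested on simulated data. Gene spans, exons and neighbours came from GENCODE on GRCh37, the assembly of hg19. RefSeq tables held a start for 9 of the 10 RNAs.

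Named genes were all 10 RNAs, NSD2, the nearest 2 protein-coding genes on each side, and from each list genes past the threshold, otherwise up to 4 with the highest mean and up to 4 with the largest absolute difference. Genes outside this rule (PPAN, SNHG3, SNHG16, HNRNPR, MEG8, MEG9, SNORD78 and MIR675) were named after their values were seen. A few genes and 1 sequence are not reported here. Spread is between libraries, and intervals on reads cover counting error only.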

Additional observations from a re-analysis of the deposited data

How the results depend on the processing

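None of the 9 tested RNAs was called under any of the 16 alternatives. At an unadjusted p under 0.05, MEG3 passed with quantile normalization and without NSD2-KD replicate 2, and SNHG1 with limma-voom, with the replicate block and without NSD2-KD replicate 1 or 3, with no adjusted p under 0.213. The log2 difference of NEAT1, 0.0003, changed sign with quantile normalization (-0.013), edgeR (-0.0084), DESeq2 (-0.0043), limma-voom (-0.0081) and the replicate block (-0.027), and ranged from -0.076 to 0.077 with 1 library left out. The other 8 RNAs kept their sign, and SNHG1 ranged from -0.94 to -0.37, GAS5 from 0.048 to 0.17, SNHG5 from -0.13 to -0.028 and MIR22HG from 0.0090 to 0.11. The number of RNAs whose groups did not overlap, 4, ranged from 4 to 7 with 1 library left out, because fewer values then have to be separated. Genes called in all numbered 10, but 1 without the trend, 14 with quantile normalization, 16 with edgeR, 58 with DESeq2, 30 without NSD2-KD replicate 3, 16 without NSD2-KD replicate 1, 4 without NSD2-KD replicate 2 and 0 without either Ctr-KD replicate, where 434 and 417 genes had an unadjusted p under 0.05 and the lone Ctr-KD library is assumed to vary like the others. The replicate numbers of NSD2-KD are those of the siRNAs, so the numbers pair nothing known. Deviations of same-numbered libraries correlated at -0.015 and -0.027 across genes. With 2 Ctr-KD libraries their deviations are mirror images of each other, so these correlations can neither show nor exclude a pairing. With the replicate block, which rests on numbers 1 and 2, 102 genes were called, none of them among the 9, and SNHG1 had a log2 difference of -0.94 (adjusted p = 0.213). NSD2-KD replicate 3 stands alone in its block, so the log2 differences of this fit equal those without that library. The 2 settings are therefore not separate results.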
